A study of Mus musculus with 8 samples.

Results

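Genes for the synthesis of fatty acids, sphingolipids and phospholipids were followed through the differentiation of mouse oligodendrocyte progenitor cells (OPCs) into oligodendrocytes. The list holds 55 gene symbols of these pathways, and 42 of them were matched by symbol in the table of 10987 transcripts. The other 13, which include the desaturases Scd1, Scd2, Fads1 and Fads2, were not analysed here. The series asks how tRNA modification and codon use go with changes in messenger RNA between both cell types, and its libraries measure RNA abundance and the mRNA held in ribosomes.

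There were 2 OPC cultures and 2 oligodendrocyte cultures, each with a library of ribosome footprints and a library of RNA-seq, so that 8 libraries were used. OPCs were derived from Epiblast stem cells of the 129S/SvEv mouse strain and grown with bFGF and PDGFA, and oligodendrocytes were made from these OPCs in medium with noggin, IGF-1, cyclic AMP, NT3 and T3. Per the study's methods, cells were collected after 3 days, the plates of a cell type were pooled, and oligodendrocyte cultures were the differentiated counterparts of the OPC cultures. Footprints are the mRNA fragments that ribosomes shield from MNase digestion, and RNA-seq came from the undigested part of the same lysate. Values are FPKM, fragments scaled to the length counted and to the mapped fragments of the library, over the coding sequence for footprints and over the whole transcript for RNA-seq. These are cultured cells made from a stem cell. In such bulk cultures, fewer cells of a type and less RNA per cell cannot be told apart.

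Myelin is a lipid-rich membrane whose characteristic glycolipids are galactosylceramide and its sulfated form, sulfatide. Both are built on ceramide, which is itself made from serine and fatty acyl-CoA in the endoplasmic reticulum, and many carry very long or hydroxylated acyl chains. Fatty acids come from acetyl-CoA in the cytosol, are lengthened in the endoplasmic reticulum, and are activated to acyl-CoA before they enter sphingolipids or the glycerophospholipids that form the bulk of cell membranes.

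The coding sequences of these genes differ in which synonymous codon they use for phenylalanine and lysine. The 50-codon stretch richest in these codons is shown for the 3 genes of the galactolipid branch, which changed most in RNA-seq, and for Cdipt, which contrasts with Ugt8a. Phe codons (TTT or TTC) and Lys codons (AAA or AAG) are in capitals, with T for the U of the mRNA, and the sequences are from Gencode vM21 (GRCm38).
Ugt8a, codons 490 to 539: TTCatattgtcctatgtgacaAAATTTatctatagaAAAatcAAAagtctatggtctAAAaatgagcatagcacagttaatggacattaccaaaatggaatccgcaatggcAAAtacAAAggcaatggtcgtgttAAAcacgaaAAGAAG
Fa2h, codons 310 to 359: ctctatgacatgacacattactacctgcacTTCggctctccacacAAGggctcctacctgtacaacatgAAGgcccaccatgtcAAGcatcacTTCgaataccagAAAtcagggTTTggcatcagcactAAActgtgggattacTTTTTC
Gal3st1, codons 72 to 121: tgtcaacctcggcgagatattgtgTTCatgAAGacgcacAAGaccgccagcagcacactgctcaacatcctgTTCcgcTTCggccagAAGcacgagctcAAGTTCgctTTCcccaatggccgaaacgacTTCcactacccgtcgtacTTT
Cdipt, codons 1 to 50: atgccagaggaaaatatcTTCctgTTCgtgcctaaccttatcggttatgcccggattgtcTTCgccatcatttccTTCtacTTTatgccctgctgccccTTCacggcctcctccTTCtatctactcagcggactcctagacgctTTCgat
The Ugt8a stretch holds 7 AAA and 2 AAG codons, whereas the Gal3st1 stretch holds 0 AAA and 4 AAG codons. The Cdipt stretch holds 1 UUU and 7 UUC codons and no Lys codon. Ugt8a lies on chromosome 3 (125865271 to 125938619, minus strand, 6 exons), Fa2h on chromosome 8 (111345141 to 111393824, minus strand, 7 exons), Gal3st1 on chromosome 11 (3983713 to 3999315, plus strand, 4 exons) and Cdipt on chromosome 7 (126975914 to 126980162, plus strand, 6 exons).

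Cell type markers set the frame for these values. The summed RNA-seq level of 7 oligodendrocyte markers was 28.3 and 31.0 FPKM in OPCs, compared with 3519.7 and 3014.5 in oligodendrocytes, and all 6 that were tested rose. Of these markers, Mag, Mog, Myrf and Ermn were at 0 in the RNA-seq of both OPC cultures. Of the 3 genes listed as OPC markers, Pdgfra and Gpr17 were higher in oligodendrocyte cultures and Ptprz1 was level (log2 0.005). Gpr17 went from 8.38 and 4.91 FPKM to 221 and 271 FPKM, and Pdgfra from 53.5 and 31.3 FPKM to 105 and 101 FPKM. The 3 genes summed to 272 and 274 FPKM in OPCs, compared with 529 and 619 in oligodendrocytes, and most of that difference came from Gpr17. Of 4 astrocyte markers, 2 were higher in oligodendrocyte cultures (sums of 223 and 170.5 against 302 and 226 FPKM), among them Gfap, which was at 0.155 and 0 FPKM in OPCs, compared with 14.2 and 2.11 in oligodendrocytes. Of 4 neuronal markers, 1 was higher (sums of 21.6 and 15.5 against 44.2 and 47.6 FPKM), while microglial and pluripotent markers summed to at most 0.501 FPKM in any library. The part of these cells in the results below was not tested. Aligned bases per library, estimated from the smallest steps between low FPKM values, were between 77.9 and 249 Mb (megabases), a figure that may be off by a whole multiple. The footprint library of oligodendrocyte replicate 2 stood apart, with 31.1% of transcripts listed at 0 against 14.7% to 20.5% in the other footprint libraries.

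More of the lipid synthesis genes were called higher than lower in oligodendrocytes, in both assays. In RNA-seq, 12 of the 40 members tested were higher in oligodendrocytes and 5 were lower (limma on log2(FPKM + 0.1), Benjamini-Hochberg adjusted p under 0.05 over all transcripts tested). Over all 8346 transcripts tested, 13% were called higher and 20.2% lower. The median log2 fold change was 0.29 over the members and -0.23 over all transcripts. In footprints, 13 of 42 members were higher and 1 was lower, beside 12.8% higher and 10.8% lower among all 8342 transcripts tested. Their median log2 fold change in footprints was 0.74, against -0.16 over all transcripts. Without the member whose OPC values were all listed at 0, the medians were 0.24 in RNA-seq and 0.71 in footprints. The 10 members called in both assays had the same direction in both. Both assays came from the same lysates, and the matching share over all transcripts was not worked out.

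Both oligodendrocyte cultures lay above both OPC cultures in RNA-seq for 20 of 40 members and below them for 12, where 27.6% and 44.2% of all transcripts tested did so. In footprints the counts were 27 above and 8 below of 42 members, where the shares of all transcripts were 31.8% and 37.9%. Scaling each library to its median ratio raised the median RNA-seq change of all transcripts from -0.23 to -0.047 and turned the split of RNA-seq calls over all transcripts from 1083 higher and 1689 lower to 1344 higher and 1264 lower. Among the members it gave 14 higher and 1 lower: no higher call was lost, and 4 of the 5 lower calls were. With 2 cultures a group, a two-sided exact permutation test of 1 gene could not give a p below 0.333, so calls rest on the spread that limma shares across genes. No footprint of any transcript was called when either OPC culture was left out, so every footprint call below depended on both. Without the trend of variance on abundance, the RNA-seq calls of Cers2, Degs1, Srebf1, Me1, Acsl4, Acsbg1, Fabp5, Cdipt and Ptdss1 were lost (limma adjusted p between 0.0580 and 0.126). The footprint calls of Cers2, Degs1, Acsbg1, Cdipt, Cept1 and Far1 were lost there too (limma adjusted p between 0.0522 and 0.126). With no minimum FPKM, the RNA-seq calls of Fabp5, Acsl4, Me1 and St3gal5 were lost (limma adjusted p between 0.0602 and 0.0759), as were those of Acsl4 and Me1 with a pseudocount of 0.01 (0.0520 and 0.0588).

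**Figure D1:**
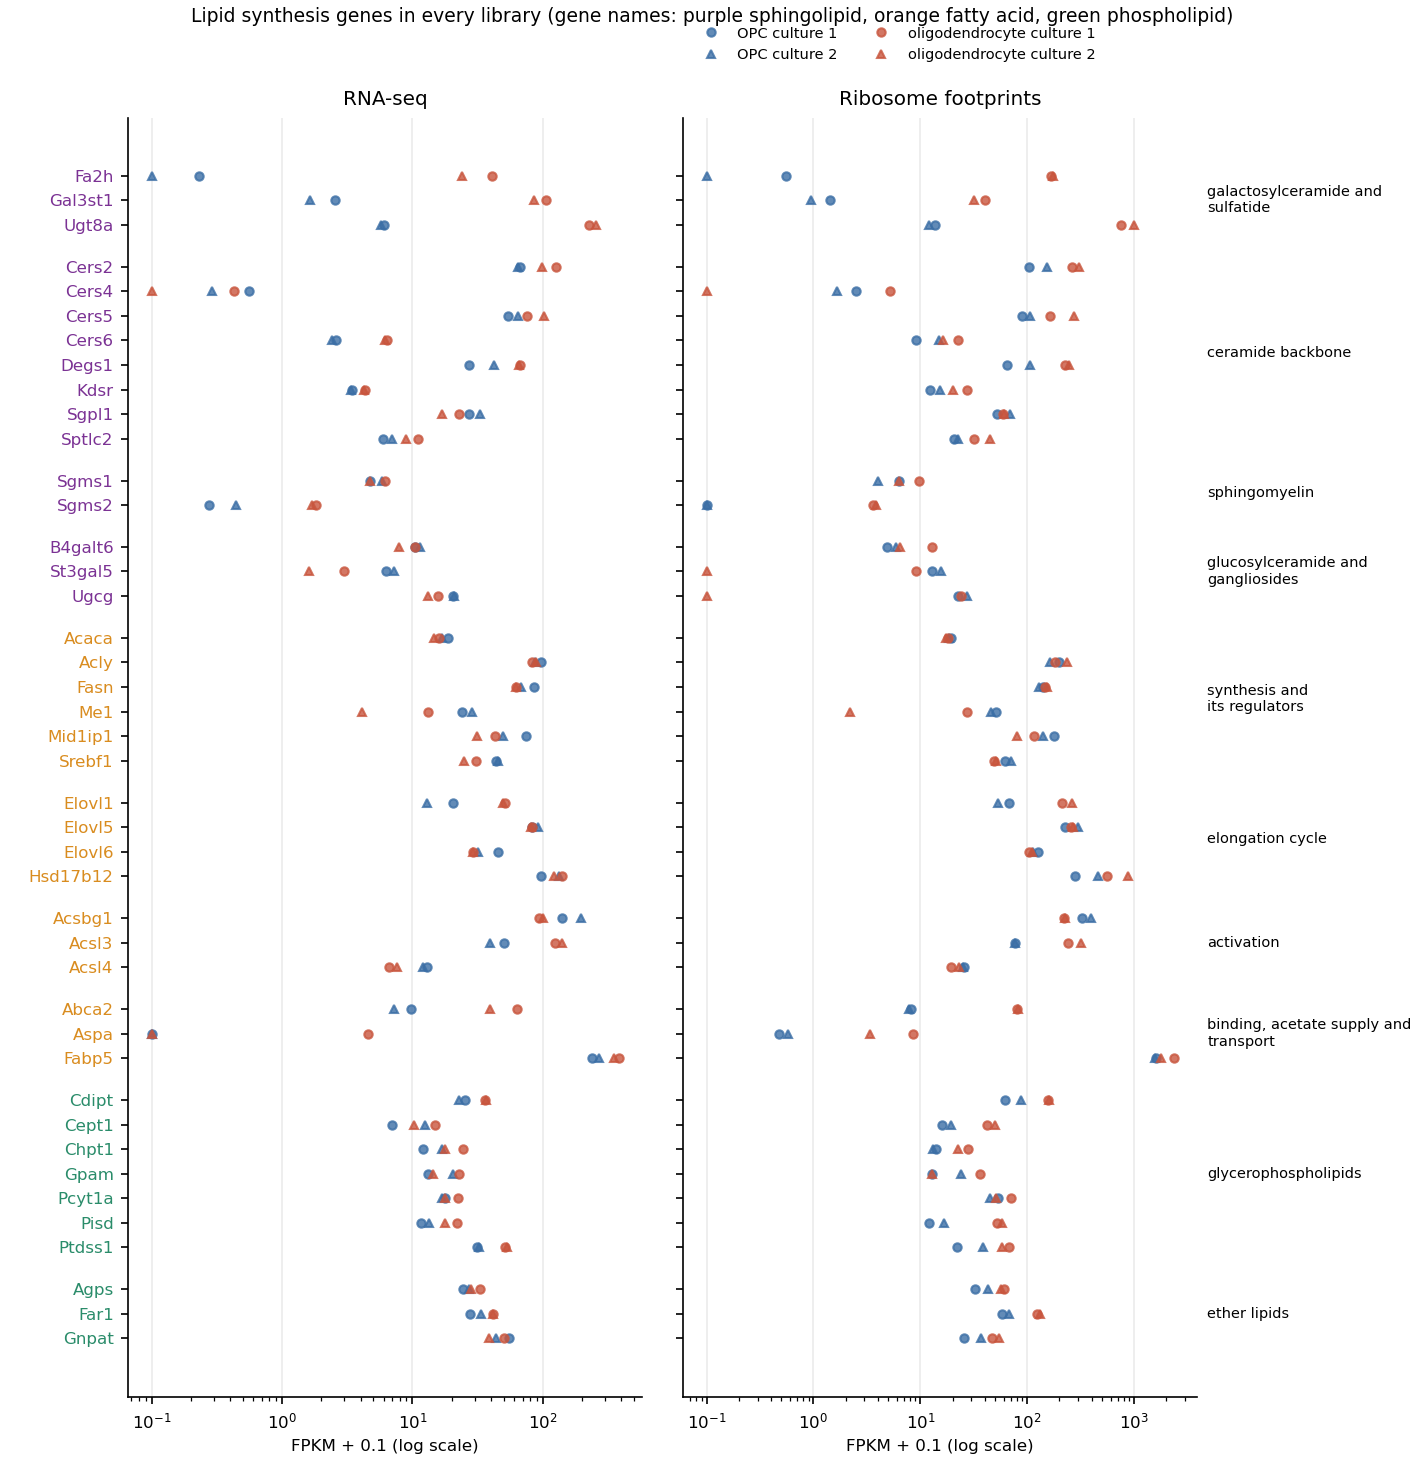
FPKM + 0.1 (log scale) of the 42 members in RNA-seq (left) and in ribosome footprints (right), with OPC cultures in blue, oligodendrocyte cultures in red, circles for replicate 1 and triangles for replicate 2, grouped by role. Fa2h, Gal3st1 and Ugt8a show the widest gap between cell types in RNA-seq, and Ugcg, St3gal5 and Cers4 are listed at 0 in the footprints of oligodendrocyte replicate 2.

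All 3 enzymes of the galactolipid branch rose in both assays. Ugt8a, the galactosyltransferase that makes galactosylceramide, was at 5.97 and 5.63 FPKM by RNA-seq in OPCs, compared with 224 and 257 in oligodendrocytes. This is a 40.7-fold difference (log2 fold change 5.35 ± 0.17 SE, n = 2 cultures a group, limma adjusted p = 0.00016). Its footprints went from 13.6 and 11.9 FPKM to 753 and 992 FPKM (log2 6.08 ± 0.19, limma adjusted p = 0.00279). The 4 cultures of this gene fell into separate ranges in both assays, with the replicates of each cell type close to each other.

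Fa2h, the hydroxylase that puts the hydroxyl group on the acyl chain of myelin glycolipids, was at or near 0 in OPCs. By RNA-seq it had 0.131 and 0 FPKM in OPCs, compared with 40.5 and 23.9 in oligodendrocytes (limma adjusted p = 0.00113). The OPC replicate 1 value stands for an estimated 79 aligned bases, so the fitted log2 fold change of 7.68 depends on the pseudocount and ran from 4.92 to 9.69 over the alternatives. Footprints were 0.459 and 0 FPKM in OPCs, compared with 166 and 173 in oligodendrocytes (limma adjusted p = 0.00956), a call that was also lost without oligodendrocyte replicate 2 (adjusted p = 0.0702). Gal3st1, the sulfotransferase that turns galactosylceramide into sulfatide, had 2.45 and 1.53 FPKM in OPCs, compared with 105 and 84.9 in oligodendrocytes (RNA-seq log2 5.54 ± 0.29, limma adjusted p = 0.000407). Its footprint FPKM was lower than its RNA-seq FPKM in every culture, at 1.32 and 0.839 FPKM in OPCs, compared with 39.9 and 31.5 in oligodendrocytes (log2 4.94 ± 0.46, limma adjusted p = 0.00836). Summed over the 3 genes, RNA-seq levels were 8.54 and 7.16 FPKM in OPCs, compared with 370.3 and 366 in oligodendrocytes. In RNA-seq these 3 were the members that stayed past the threshold in all 12 settings tried.

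The enzymes of the ceramide backbone and its breakdown rose in part. Of 7 tested in RNA-seq, 3 were higher and none lower, and of 8 tested in footprints 2 were higher. Cers2, the ceramide synthase for very long acyl chains and the ceramide gene with the highest RNA level, was at 66.5 and 63.9 FPKM in OPCs, compared with 127 and 97.9 in oligodendrocytes (log2 0.77 ± 0.18, limma adjusted p = 0.0234). Its footprints were 103 and 154 FPKM in OPCs, against 264 and 303 in oligodendrocytes (log2 1.16 ± 0.24, limma adjusted p = 0.0379). Both cultures of oligodendrocytes exceeded both of OPCs, but the RNA-seq call was lost without OPC replicate 1, OPC replicate 2 or oligodendrocyte replicate 1 (adjusted p 0.118, 0.149 and 0.0836) or without the trend (0.0801), and the footprint call when any 1 of the 4 cultures was left out (adjusted p 0.0738 to 0.16). Degs1, the desaturase that completes ceramide, had 26.8 and 41.9 FPKM in OPCs, compared with 66.4 and 65.5 in oligodendrocytes (log2 0.97 ± 0.24, limma adjusted p = 0.0288). Its footprints were 64.6 and 107 FPKM in OPCs, against 226 and 244 in oligodendrocytes (log2 1.5 ± 0.27, limma adjusted p = 0.0299). The groups did not overlap for Degs1 either, with OPC replicate 1 the lowest library, and both calls were lost when any 1 culture was left out (adjusted p 0.0508 to 0.12 in RNA-seq, 0.0727 to 0.141 in footprints).

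Cers6, a ceramide synthase for shorter chains, was at 2.49 and 2.34 FPKM in OPC RNA-seq, compared with 6.29 and 6.02 in oligodendrocytes (log2 1.32 ± 0.33, limma adjusted p = 0.0308), a call lost when any 1 culture was left out (adjusted p 0.0593 to 0.174). Its footprints, 9.06 and 14.7 FPKM in OPCs, against 22.3 and 16.1 in oligodendrocytes, were not called (limma adjusted p = 0.249). Cers5 was not called in the main fits (limma adjusted p = 0.0857 in RNA-seq, 0.0642 in footprints). With the cultures paired by replicate block it was higher in RNA-seq (log2 0.56, adjusted p = 0.0275) and in footprints (log2 1.14, adjusted p = 0.0277). Its footprints also passed the threshold without pairing when the pseudocount was 1. Sptlc2, a subunit of the serine palmitoyltransferase that starts the pathway, and Kdsr, the reductase of its next step, were not called (log2 0.62 and 0.34 in RNA-seq). Sgpl1, a lyase of the breakdown and not of the synthesis, was not called either (log2 -0.61 in RNA-seq). Cers4 was under the minimum mean of 1 FPKM in RNA-seq, and its footprints were 2.41 and 1.56 FPKM in OPCs, compared with 5.12 and 0 in oligodendrocytes.

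Of the 5 genes for other uses of ceramide, 1 rose, in footprints, and 1 fell, in RNA-seq. Sgms2, a sphingomyelin synthase, was listed at 0 in both OPC footprint libraries and at 3.49 and 3.76 FPKM in the oligodendrocyte libraries (limma adjusted p = 0.0431), and no fold change is given against 0. This call was lost with a pseudocount of 0.01 (adjusted p = 0.05003), and with the replicate block it had an adjusted p of 0.112. Its RNA-seq values, 0.176 and 0.343 FPKM in OPCs, against 1.71 and 1.6 in oligodendrocytes, were under the minimum mean and were not tested in the main fit. With no minimum FPKM, its RNA was called higher. The other synthase, Sgms1, was not called, with 4.64 and 5.78 FPKM in OPCs, compared with 6.01 and 4.64 in oligodendrocytes by RNA-seq (log2 0.027 ± 0.32, limma adjusted p = 0.959).

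In the branch of glucosylceramide and gangliosides no member rose and 1 of 3 fell in RNA-seq. St3gal5, the sialyltransferase that makes the first ganglioside, went from 6.11 and 7.12 FPKM in OPCs to 2.91 and 1.51 FPKM in oligodendrocytes (log2 -1.61 ± 0.43, limma adjusted p = 0.0369). It was lower in both oligodendrocyte cultures than in either OPC culture, but not called without OPC replicate 1, OPC replicate 2 or oligodendrocyte replicate 2 (adjusted p 0.183, 0.244 and 0.0912). Ugcg, the glucosylceramide synthase, had 20.3 and 20.8 FPKM in OPCs, compared with 15.6 and 13.1 in oligodendrocytes (log2 -0.52 ± 0.20, limma adjusted p = 0.10). B4galt6, which makes lactosylceramide, was not called either (log2 -0.26 in RNA-seq). Its footprints were 4.75 and 5.82 FPKM in OPCs, compared with 12.8 and 6.29 in oligodendrocytes, and were not called (log2 0.76 ± 0.53, limma adjusted p = 0.347).

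The footprints of this branch differed between the oligodendrocyte cultures. Ugcg footprints were 22.5 and 27.2 FPKM in OPCs, compared with 23.8 and 0 in oligodendrocytes, and St3gal5 footprints were 12.8 and 15.4 FPKM in OPCs, compared with 9.05 and 0 in oligodendrocytes. Oligodendrocyte replicate 1 was within the OPC range for Ugcg and below it for St3gal5, while replicate 2 was listed at 0 for both. At the estimated depth of replicate 2, the mean of the other footprint libraries (24.5 FPKM for Ugcg, 12.4 FPKM for St3gal5) would have given 2699 and 1440 aligned bases. Neither gene was called in footprints (limma adjusted p = 0.35 and 0.294). Without oligodendrocyte replicate 1 the log2 changes were -7.96 for Ugcg and -7.15 for St3gal5, which rest on replicate 2 alone. The median footprint change of all transcripts was then -0.31, against -0.16 with all libraries.

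No gene of core fatty acid synthesis was called higher in oligodendrocytes. Of its 6 members, 2 were lower in RNA-seq and none was called in footprints. Acly, which makes cytosolic acetyl-CoA from citrate and has the highest RNA level of the group, was at 95.9 and 87.1 FPKM in OPCs, compared with 81.9 and 87.7 in oligodendrocytes (log2 -0.11 ± 0.15, limma adjusted p = 0.60). Its groups overlapped, and its small change became positive after median-ratio scaling (log2 0.072). Acaca, the acetyl-CoA carboxylase, and Fasn, the fatty acid synthase, had log2 changes of -0.21 ± 0.20 and -0.30 ± 0.17 in RNA-seq and -0.10 ± 0.22 and 0.15 ± 0.11 in footprints, none of them called. Acaca shares 60.2% of its words of 30 bases with Gm5182, so its value is uncertain.

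Me1, the malic enzyme that supplies NADPH for fatty acid synthesis, fell from 23.8 and 28.3 FPKM in OPC RNA-seq to 13.1 and 4.0 FPKM in oligodendrocytes (log2 -1.83 ± 0.54, limma adjusted p = 0.0474). The oligodendrocyte cultures differed, with replicate 2 the lowest, and without it the log2 change was -0.98 (adjusted p = 0.0607). The call was also lost without either OPC culture (adjusted p 0.217 and 0.282) and after scaling (adjusted p = 0.0565). Me1 footprints were 50.5 and 45.3 FPKM in OPCs, against 27.4 and 2.08 in oligodendrocytes, not called over all 4 libraries (limma adjusted p = 0.223). Without oligodendrocyte replicate 1 the log2 change was -4.46, which rests on replicate 2 alone. In the Me1 coding sequence, 69.0% of the words of 30 bases occur in other genes. Gm7049 and Gm7329 share the most words with its transcript. Srebf1, a transcription factor that drives lipogenic genes, fell from 43.3 and 45.4 FPKM to 30.8 and 24.7 FPKM in RNA-seq (log2 -0.69 ± 0.19, limma adjusted p = 0.0369), with no overlap between the groups. That call was lost after scaling (adjusted p = 0.0682) and without OPC replicate 1, OPC replicate 2 or oligodendrocyte replicate 2 (adjusted p 0.144, 0.185 and 0.12). Mid1ip1, a regulator of acetyl-CoA carboxylase, was not called without pairing (limma adjusted p = 0.0816 in RNA-seq, 0.108 in footprints), but with the replicate block it was lower in RNA-seq (log2 -0.73, adjusted p = 0.0122) and in footprints (log2 -0.71, adjusted p = 0.0324).

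**Figure D2:**
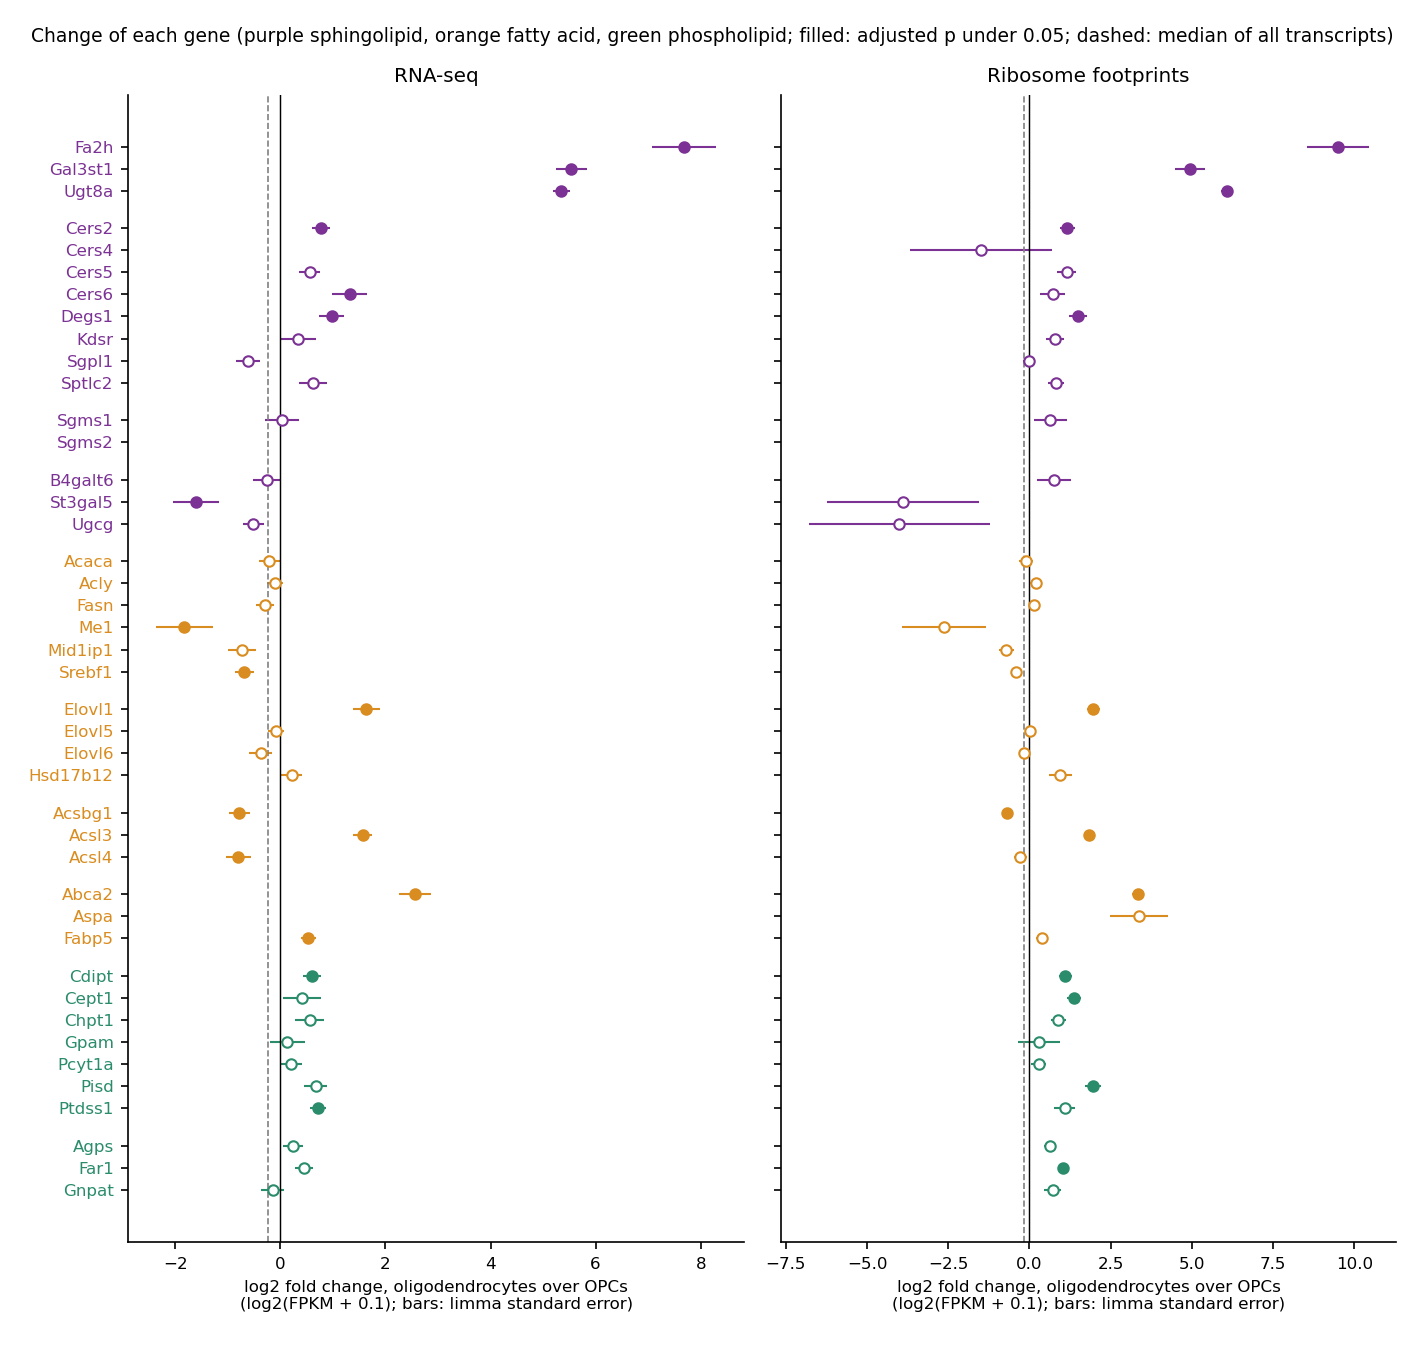
log2 fold change of each member, oligodendrocytes over OPCs, in RNA-seq (left) and footprints (right), with the limma standard error as bars, filled points for adjusted p under 0.05 and a dashed line at the median of all transcripts (-0.23 and -0.16). Members whose OPC values were all listed at 0 (Aspa in RNA-seq, Sgms2 in footprints) are left out, and the 3 galactolipid genes lie farthest to the right.

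In the elongation cycle, 1 of 4 members rose, and it did so in both assays. Elovl1, the elongase for very long saturated chains, had 20.2 and 12.8 FPKM in OPCs, compared with 50.8 and 49.4 in oligodendrocytes (RNA-seq log2 1.63 ± 0.25, limma adjusted p = 0.00702). Its footprints were 67.9 and 52.9 FPKM in OPCs, against 212 and 259 in oligodendrocytes (log2 1.97 ± 0.19, limma adjusted p = 0.00899). Both cultures of oligodendrocytes were well above both of OPCs. The RNA-seq call just missed the threshold without OPC replicate 2 or oligodendrocyte replicate 2 (adjusted p 0.055 and 0.0518), and the footprint call did so without oligodendrocyte replicate 2 (adjusted p = 0.0605). Elovl1 overlaps Cdc20, a cell cycle gene on the opposite strand, by 53 bases.

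Elovl5 and Elovl6, elongases for polyunsaturated chains and for palmitate, were not called, with log2 changes of -0.083 ± 0.15 and -0.37 ± 0.22 in RNA-seq and 0.026 ± 0.17 and -0.16 ± 0.12 in footprints (Elovl5 was at 0.098 in RNA-seq after median-ratio scaling). Of the words of 30 bases in the Elovl6 coding sequence, 46.8% occur in other genes. Gm11295 and Trim12c share the most words with its transcript. Hsd17b12, the ketoacyl reductase of the cycle, had the highest RNA level of this group, at 96.5 and 132 FPKM in OPCs, compared with 141 and 121 in oligodendrocytes, and these overlapped (log2 0.21 ± 0.20, limma adjusted p = 0.448). Its footprints did not overlap, at 279.7 and 456 FPKM in OPCs, against 551 and 869 in oligodendrocytes (log2 0.95 ± 0.35), and were called higher with the replicate block (adjusted p = 0.00864) but not without it (limma adjusted p = 0.133).

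Of the 3 acyl-CoA synthetases, which activate fatty acids, 1 rose and 2 fell in RNA-seq. Acsl3, which sits on the endoplasmic reticulum and lipid droplets, rose from 50.7 and 39.5 FPKM in OPC RNA-seq to 125 and 141 FPKM in oligodendrocytes (log2 1.57 ± 0.18, limma adjusted p = 0.00321). Its footprints rose from 76.3 and 77.4 FPKM to 241 and 316 FPKM (log2 1.84 ± 0.17, limma adjusted p = 0.00812). The RNA-seq call was lost without OPC replicate 2 (adjusted p = 0.0508). Acsbg1, which had the highest RNA level of the 3 over all cultures, fell from 139.7 and 197 FPKM to 93.4 and 99.3 FPKM in RNA-seq (log2 -0.78 ± 0.20, limma adjusted p = 0.0323). Its footprints fell from 324 and 396 FPKM to 222 and 226 FPKM (log2 -0.68 ± 0.14, limma adjusted p = 0.0394), the 1 lower call among the members in footprints. In oligodendrocytes the RNA of Acsl3 was thus above that of Acsbg1, and in OPCs below it, in each culture.

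Neither Acsbg1 call held after median-ratio scaling (adjusted p = 0.0860 in RNA-seq, 0.0710 in footprints) or with any 1 culture left out (adjusted p 0.0538 to 0.131 and 0.0908 to 0.171). Acsl4, which prefers arachidonate, was at 12.8 and 11.9 FPKM in OPCs, against 6.57 and 7.54 in oligodendrocytes by RNA-seq (log2 -0.80 ± 0.24, limma adjusted p = 0.0494). Its adjusted p was 0.0525 with the replicate block, 0.10 after median-ratio scaling and 0.0904 to 0.233 when a culture was left out, and its footprints were not called (log2 -0.28).

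Among genes of fatty acid binding, transport and acetate supply, Abca2 had the clearest change. Abca2, a lipid transporter of the endolysosomal membrane, had 9.73 and 7.17 FPKM in OPC RNA-seq, compared with 63.1 and 39.1 in oligodendrocytes (log2 2.56 ± 0.30, limma adjusted p = 0.00315). Its footprints were 8.0 and 7.71 FPKM in OPCs, against 79.2 and 81.1 in oligodendrocytes, a 10.1-fold difference (log2 3.34 ± 0.18, limma adjusted p = 0.00414). The groups lay far apart in both assays, although the RNA-seq call narrowly failed without OPC replicate 1 or 2 (adjusted p 0.0505 and 0.0686). Fabp5, a fatty acid binding protein, was the most abundant member in every library, with RNA-seq values of 239.9 and 267 FPKM in OPCs, compared with 381 and 352 in oligodendrocytes (log2 0.53 ± 0.15, limma adjusted p = 0.0426). That call was lost when any 1 culture was left out (adjusted p 0.12 to 0.188), and the Fabp5 footprints, 1596 and 1551 FPKM in OPCs, against 2337 and 1785 in oligodendrocytes, were not called (limma adjusted p = 0.213). In the Fabp5 coding sequence, 84.4% of the words of 30 bases occur in other genes. Gm6166 and Gm14328 share the most words with its transcript. Aspa, which frees acetate from N-acetylaspartate, was listed at 0 in RNA-seq except in oligodendrocyte replicate 1 (4.42 FPKM). Its footprints were 0.372 and 0.473 FPKM in OPCs, compared with 8.36 and 3.31 in oligodendrocytes (limma adjusted p = 0.0663).

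Of 7 genes of glycerophospholipid synthesis, 3 were called higher in footprints and 2 in RNA-seq, and none was called lower. Cdipt, the phosphatidylinositol synthase, was at 25.3 and 22.6 FPKM in OPC RNA-seq, compared with 35.9 and 36.4 in oligodendrocytes (log2 0.60 ± 0.17, limma adjusted p = 0.0443). Its footprints were 62.0 and 86.7 FPKM in OPCs, against 157 and 159 in oligodendrocytes (log2 1.11 ± 0.20, limma adjusted p = 0.0287). The groups did not overlap, but both calls were lost when any 1 culture was left out (adjusted p 0.0987 to 0.176 in RNA-seq, 0.071 to 0.127 in footprints). Ptdss1, a phosphatidylserine synthase and the member of this group with the highest RNA level, had 31.0 and 32.5 FPKM in OPCs, compared with 51.1 and 53.4 in oligodendrocytes (RNA-seq log2 0.72 ± 0.16, limma adjusted p = 0.0199). Its RNA-seq call was lost with any 1 culture left out (adjusted p 0.0509 to 0.0985), and its footprints, 21.9 and 38.7 FPKM in OPCs, against 66.7 and 57.5 in oligodendrocytes, were not called (limma adjusted p = 0.0885).

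Pisd, the mitochondrial enzyme that decarboxylates phosphatidylserine to phosphatidylethanolamine, had footprints of 11.9 and 16.6 FPKM in OPCs, compared with 51.6 and 58.0 in oligodendrocytes (log2 1.95 ± 0.24, limma adjusted p = 0.0141). Its RNA was at 11.5 and 13.4 FPKM in OPCs, against 21.9 and 17.8 in oligodendrocytes (log2 0.67 ± 0.22, limma adjusted p = 0.065), and the change passed the threshold after median-ratio scaling (adjusted p = 0.0272). The footprint call was lost without oligodendrocyte replicate 2 (adjusted p = 0.0785). In its coding sequence, 95.1% of the words of 30 bases occur in other genes, so reads of these words cannot be told apart. Gm20671 and Pisd-ps2 share the most words with its transcript. Cept1, which makes both phosphatidylcholine and phosphatidylethanolamine, rose in footprints from 15.7 and 19.2 FPKM to 41.6 and 49.4 FPKM (log2 1.38 ± 0.21, limma adjusted p = 0.0214), but not without oligodendrocyte replicate 2 (adjusted p = 0.0856). Its RNA-seq values overlapped, at 6.86 and 12.3 FPKM in OPCs, against 14.7 and 10.1 in oligodendrocytes (log2 0.41 ± 0.36, limma adjusted p = 0.424). The Cept1 transcript overlaps Dennd2d and Dram2, on the opposite strand, by 776 of its 2814 bases. Chpt1, a cholinephosphotransferase, Pcyt1a, whose step sets the rate of phosphatidylcholine synthesis, and Gpam, which adds the first acyl chain to glycerol phosphate, were not called (RNA-seq log2 0.56, 0.20 and 0.13).

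Of the 3 genes that start ether lipids, the precursors of the plasmalogens of myelin, none was called in RNA-seq and 1 rose in footprints. Far1, which supplies the fatty alcohol, had footprints of 57.7 and 66.6 FPKM in OPCs, compared with 123 and 131 in oligodendrocytes (log2 1.03 ± 0.14, limma adjusted p = 0.0153), and RNA-seq values of 27.7 and 33.2 FPKM in OPCs, against 41.3 and 41.5 in oligodendrocytes (log2 0.45 ± 0.18, limma adjusted p = 0.101). The footprint call was lost without oligodendrocyte replicate 2 (adjusted p = 0.0718) and without the trend (adjusted p = 0.0615), and the RNA-seq change passed the threshold after median-ratio scaling (adjusted p = 0.0457). Gnpat, the peroxisomal acyltransferase of the pathway, had the highest RNA level of the 3, at 55.0 and 43.3 FPKM in OPCs, compared with 50.4 and 38.4 in oligodendrocytes, with groups that overlapped (log2 -0.15 ± 0.21, 0.031 after median-ratio scaling, limma adjusted p = 0.615). Its footprints did not overlap, at 25.3 and 37.1 FPKM in OPCs, against 46.2 and 54.7 in oligodendrocytes, but were not called (log2 0.71 ± 0.25, limma adjusted p = 0.126). Agps, which swaps the acyl chain for the alcohol, changed by 0.24 in RNA-seq and 0.63 in footprints on the log2 scale, and neither was called.

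Ribosome density, the footprint FPKM divided by the RNA-seq FPKM of the same culture, was higher in oligodendrocytes for most members but passed the test for none. The median over the members with both values was 2.07 and 2.01 in OPCs, compared with 2.37 and 2.70 in oligodendrocytes. The median change in log2 ribosome density was 0.38 over the 40 members tested, against 0.10 over all 8056 transcripts tested, and 34 of the 40 changes were positive, where 57.7% were over all transcripts. By replicate number, the median of the members was 0.42 for the first pair of cultures and 0.37 for the second. After median-ratio scaling the median was 0.22 over the members and -0.057 over all transcripts, and 29 of 40 changes were positive. By limma's interaction term 0 members were called, and 1 transcript of all (0.0124% higher, 0% lower). At an unadjusted p under 0.05 there were 4 members and 387 transcripts of all.

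Those 4 were Pisd, Ugt8a, Far1 and Gnpat. The ribosome density of Pisd was 1.04 and 1.24 in OPCs and 2.35 and 3.26 in oligodendrocytes (change in log2 1.28 ± 0.33 SE, limma unadjusted p = 0.00696, adjusted p = 0.766). That of Ugt8a was 2.28 and 2.11 in OPCs and 3.36 and 3.86 in oligodendrocytes (change in log2 0.73 ± 0.24, limma adjusted p = 0.875). The densities of both cell types did not overlap for either gene. For Pisd, 95.1% of the words of 30 bases in the coding sequence occur in other genes, against 52.6% over the transcript. Footprints and RNA-seq may thus hold reads of other genes to unlike degrees, which was not tested. Far1 went from 2.08 and 2.01 to 2.98 and 3.15 and Gnpat from 0.46 and 0.856 to 0.917 and 1.42 (changes in log2 0.58 ± 0.20 and 0.86 ± 0.35, limma adjusted p = 0.875 for both). Gal3st1 was among the 6 members with a negative change, with densities of 0.541 and 0.547 in OPCs and 0.379 and 0.372 in oligodendrocytes (change in log2 -0.59 ± 0.52). Cdipt went from 2.45 and 3.85 to 4.36 and 4.38 (change in log2 0.51 ± 0.25, limma adjusted p = 0.875). The widest negative changes, those of Ugcg and St3gal5, had standard errors of 3.13 and 2.65 and came with the footprints listed at 0 in oligodendrocyte replicate 2. Over the alternatives these changes ran from -7.31 to 0.34 and from -5.09 to 0.52. Without oligodendrocyte replicate 1, Ugcg, St3gal5 and Me1 were called, among 883 transcripts of all.

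**Figure D3:**
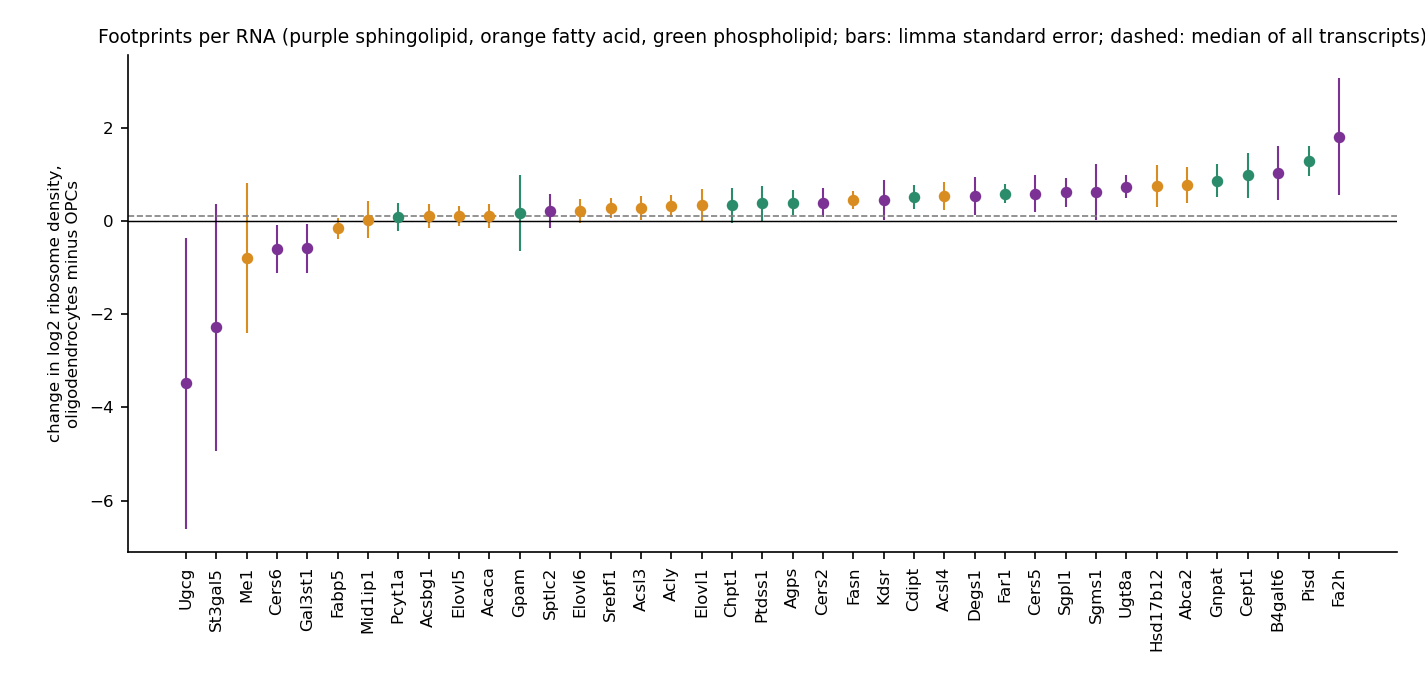
Change in log2 ribosome density, oligodendrocytes minus OPCs, for 39 members in order of size, with the limma standard error as bars and a dashed line at the median of all transcripts (0.10). Most points lie above 0, none passed the adjusted threshold, and Aspa, whose OPC values in RNA-seq were 0, is left out.

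Codon content varied widely over the members, whichever way their RNA moved. The UUU share of Phe codons had a median of 0.437 over the 42 members and 0.429 over all transcripts, and the AAA share of Lys codons had medians of 0.367 and 0.368. Both shares were under the median of all transcripts in 16 members and at or above it in 17. Gal3st1 used UUU for 3 of its 27 Phe codons and AAA for 0 of its 18 Lys codons, while Ugt8a used UUU for 15 of 24 and AAA for 18 of 33. The coding stretches shown above carry this contrast, and the RNA-seq log2 fold changes of Gal3st1 and Ugt8a were 5.54 ± 0.29 and 5.35 ± 0.17. Fa2h lay between them, with shares of 0.333 and 0.286, and Cdipt had 0.133 and 0.20. Acsl3, with shares of 0.63 and 0.678, was also among those that rose. The median UUU share was 0.337 in the 12 members higher in RNA-seq, 0.476 in the 5 lower and 0.462 in the 23 not called, and the ranges overlapped (0.111 to 0.630, 0.136 to 0.727 and 0.240 to 0.857). For the AAA share the medians were 0.301, 0.324 and 0.42 in the same order. Across genes, Spearman's rho between the RNA-seq log2 fold change and the UUU share was 0.053 over 40 members, and -0.024 for the AAA share. With the change in ribosome density it was 0.070 for UUU and 0.16 for AAA. These points share 8 libraries and are genes, not replicates. The paper relates these codons to mRNA half-life and ribosome pausing, whereas the values here are changes in RNA abundance and ribosome density. mRNA decay was not tested here.

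**Figure D4:**
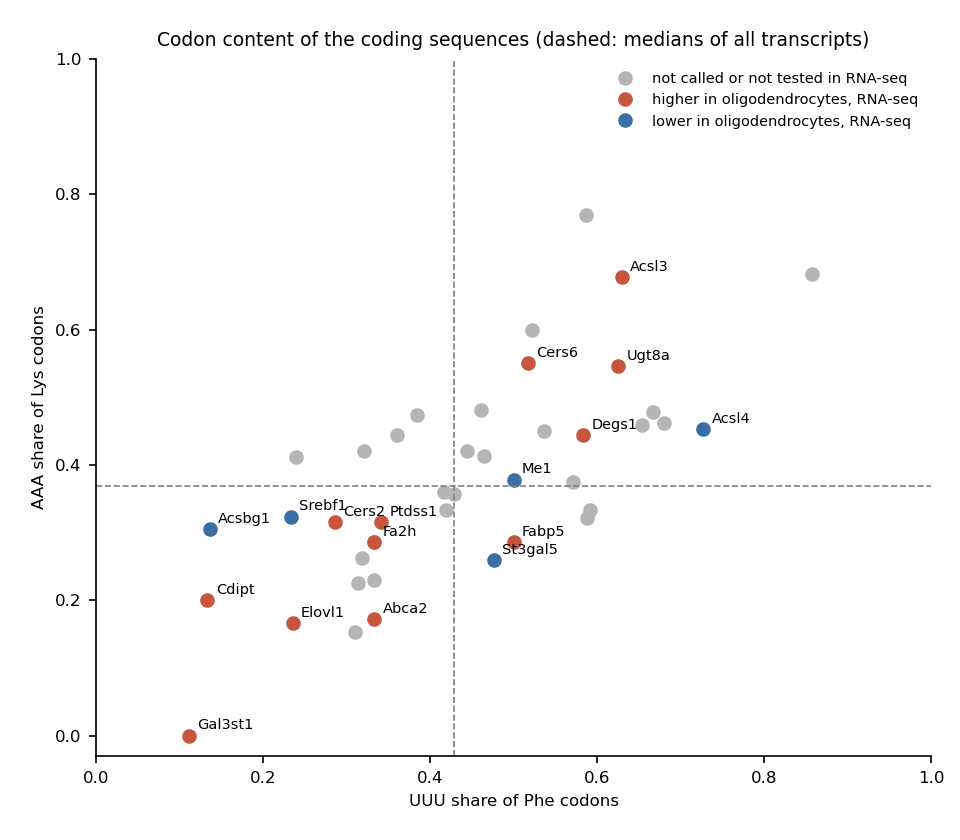
UUU share of Phe codons and AAA share of Lys codons in the coding sequence of each of the 42 members, with the call in RNA-seq by colour and dashed lines at the medians of all transcripts (0.429 and 0.368). Gal3st1 (0.111 and 0) and Acsl3 (0.630 and 0.678) stand at opposite ends of the members that were higher in oligodendrocytes.

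Other lipid genes, from a list of 86 of which 58 were in the table, gave the surroundings of these pathways. Of 44 tested in RNA-seq, 9 were higher and 2 lower, beside 13% higher and 20.2% lower over all transcripts. In footprints 11 of 44 were higher and 1 lower, beside 12.8% and 10.8%. Their median log2 fold changes were 0.22 and 0.51, against -0.23 and -0.16 over all transcripts. Dgat2, which makes triacylglycerol, rose from 4.11 and 4.87 FPKM to 148 and 87.3 FPKM (RNA-seq log2 4.64 ± 0.29, limma adjusted p = 0.000598). Agpat4, an acyltransferase for lysophosphatidic acid, rose from 17.6 and 11.7 FPKM to 102 and 112 FPKM (log2 2.89 ± 0.24, limma adjusted p = 0.00119). These exceeded every change among the members of the phospholipid class. Slc27a4, a fatty acid transport protein, and Arsa, the sulfatase that breaks down sulfatide, rose by 1.44 ± 0.23 and 1.35 ± 0.39 on the log2 scale (limma adjusted p = 0.00808 and 0.043). Mboat7, an acyltransferase of phosphatidylinositol, went from 15.3 and 18.5 FPKM to 7.62 and 6.19 FPKM (log2 -1.28 ± 0.25, limma adjusted p = 0.0138), and Slc27a1, another fatty acid transport protein, from 36.1 and 34.2 FPKM to 15.1 and 17.2 FPKM (log2 -1.12 ± 0.18, limma adjusted p = 0.00797). The Arsa call was lost with the replicate block (adjusted p = 0.0504), with no minimum FPKM (adjusted p = 0.0644) and with any 1 culture left out (adjusted p 0.0741 to 0.185), and that of Slc27a4 without OPC replicate 2 (adjusted p = 0.0739). The Mboat7 call was lost without OPC replicate 1, OPC replicate 2 or oligodendrocyte replicate 2 (adjusted p 0.0943, 0.146 and 0.0602), and the Slc27a1 call without OPC replicate 1 or 2 (adjusted p 0.0798 and 0.085).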

How the data were processed

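Ribosome footprints and RNA-seq of 2 OPC and 2 oligodendrocyte cultures were grouped by the cell type and library kind in the labels. The authors clipped adapters (reads of at least 18 bases), mapped to GRCm38 with HISAT2 2.1.0 and tabulated the deposited FPKM with StringTie 1.3.5 and ballgown on canonical coding transcripts of Gencode vM9, over the CDS for footprints and the transcript for RNA-seq. No strand option appears in their code. Reads that fit near-identical genes, or that lie where 14 members overlap a gene on the opposite strand, can thus be shared.

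Transcripts whose mean over the libraries of a kind reached 1 FPKM were tested with limma 3.58.1 (R 4.3.3, trend) on log2(FPKM + 0.1), two-sided, with p-values adjusted over all transcripts. A fold change on this scale understates low genes. For ribosome density the test was the cell type by library kind interaction over 8 libraries. The count test of the study cannot be run on FPKM. Transcript positions and coding sequences came from Gencode vM21 (GRCm38), in which all 10987 transcripts were found. Estimated depth is the number of aligned bases that makes the 300 lowest values whole. The limma fits were tested on simulated data.

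The members and the other gene lists were chosen with earlier results of these data known. Values in every library are given for members past the threshold whose log2 fold change was at least 1 in size, for Cdipt and for the member of each role with the highest mean RNA-seq FPKM, and, chosen after their values were seen, for other called members. Of the other lipid genes, the 5 largest RNA-seq changes in each direction past the threshold are named, except 1 gene that is not reported here. The main fits did not pair the cultures. In the replicate block they were paired by replicate number, since the study's methods give the oligodendrocytes as the counterparts of the OPC cultures. Same-numbered deviations correlated at r = 0.108 in RNA-seq, 0.0860 in footprints and 0.0604 in ribosome density. Alternatives were other pseudocounts and minimums, median-ratio scaling, no trend, the replicate block and leaving out each culture. A block on culture for ribosome density was added after seeing the data.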

Additional observations from a re-analysis of the deposited data

How the results depend on the processing

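The median changes of the lipid synthesis genes in RNA-seq and footprints moved by less than the spread between pairs of cultures under every alternative. That spread was wide, so this is a loose check. The pair medians were 0.48 and 0.033 in RNA-seq (SD 0.32) and 0.99 and 0.54 in footprints (SD 0.31). In RNA-seq the SD was larger than the median change itself (0.29). The number of calls depended on the spread estimate and on each culture. Without the trend, 8 members were called in RNA-seq (2075 over all transcripts) and 8 in footprints (1036 over all transcripts). Among the other lipid genes, 8 were called in RNA-seq and 3 in footprints there. Leaving out each culture in turn gave 3 to 9 member calls in RNA-seq (364 to 2599 over all transcripts, 2 to 8 among the other lipid genes). In footprints it gave 0 to 17 member calls (0 to 3442 over all transcripts, 0 to 18 among the other lipid genes). Without OPC replicate 1 or OPC replicate 2 there were 0 footprint calls of any kind. A lone culture was taken to vary like the other group.

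Ribosome density calls over all transcripts were 3 with a pseudocount of 0.01, 3 with median-ratio scaling, 14 without the trend, 0 with culture as a block (539 at an unadjusted p under 0.05) and 0 to 883 when a culture was left out. For the members, leaving out a culture gave 0 to 3 calls, the 3 coming without oligodendrocyte replicate 1, and medians of 0.26 to 0.52. Median-ratio scaling gave a median of 0.22.

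With the replicate block (paired cultures), 18 members were called in RNA-seq (3323 over all transcripts) and 16 in footprints (1735 over all transcripts). In ribosome density it called 0 members and 1 transcript of all. Of the named results only the calls of Acsl4, Sgms2, Arsa, Cers5, Mid1ip1 and Hsd17b12, given above, changed. Single values were followed for the members called in either assay or highest in their role, for Cdipt and for the named other lipid genes, with ribosome density for 5 members. Of these 694 values under the alternatives, 551 kept direction and side of the threshold, 129 fell short of it and 6 newly passed it. The 8 that changed sign were RNA-seq changes that were not called: Acly (0.072) and Gnpat (0.031) with median-ratio scaling, and, when a culture was left out, Gnpat (-0.35 to 0.045), Hsd17b12 (-0.013 to 0.44), Cept1 (-0.013 to 0.82) and Sgms1 (-0.16 to 0.21). Over all members tested, 7 in RNA-seq, 4 in footprints and 12 in ribosome density changed sign under some alternative, and 5, 9 and 3 newly passed the threshold under one. The causes were not tested. Only 2 cultures a group limit what can be called.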
